A study of Rattus norvegicus with 16 samples.

Results

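The transcripts described here encode the phase II conjugation enzymes of the rat: UDP-glucuronosyltransferases (UGT), glutathione S-transferases (GST) and cytosolic sulfotransferases (SULT). The members were all genes whose rat symbol begins with Ugt and a digit, with Gst and a class letter a, m, p, t, o, z or k, or with Sult and a digit. The RefSeq gene table held 77 such genes, and 47 of them were matched by accession to at least 1 probe of the array, among 15159 named genes in all. There were 12 UGT, 23 GST and 12 SULT genes, measured by 53 of the 30367 probes. A gene with several probes is represented by the probe of highest mean signal.

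Total RNA of the distal colon, labelled as normal tissue, was hybridised to single-colour Agilent arrays from 16 male rats in 4 groups of 4. All rats were (ACIxF344)F1 and were 97 days old. They were either wildtype or Pirc/+, that is, heterozygous for the mutant Pirc allele of Apc, which makes rats prone to colonic adenomas. The DSS rats drank 4% dextran sodium sulfate, a polymer that injures the colonic lining and inflames it, from day 40 to 47 and again from day 54 to 61, and the untreated rats of each genotype received none. Sampling therefore came 36 days after the last DSS. Levels are given as log2 of the signal over the 75th percentile of that rat's array, so 0 is a signal equal to that percentile, and changes are differences of such log2 levels. A member "rose" or "fell" where limma, fitted over all 30367 probes with 4 rats a group, gave an adjusted p of at most 0.05 (Benjamini-Hochberg).

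Phase II enzymes attach a charged group to drugs, dietary compounds, bile pigments, steroids and lipid oxidation products, which makes them soluble and ready for export. UGTs sit in the endoplasmic reticulum and transfer glucuronic acid, cytosolic GSTs add glutathione to electrophiles, and SULTs transfer sulfate from the donor PAPS. In the colon these enzymes belong mainly to the absorptive surface cells, and many of the genes are known targets of Nrf2, the Ah receptor and nuclear receptors.

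Of the 47 members, 29 were well above background on all 16 arrays, 8 on some arrays and 10 on none. The GST family accounted for most of the measured ones, with 21 of 23 well above background throughout, against 4 of 12 UGT and 4 of 12 SULT genes. Gstt4, Sult1d1, Sult2a1, Sult2a6, Sult4a1, Ugt2a1, Ugt2a3, Ugt2b, Ugt2b35 and Ugt2b7 were not well above background on any array. The tissue label was met by the marker genes: all 15 measured markers of colonic surface epithelium were well above background on all arrays, with a summed signal of 622 to 1006 times the 75th percentile. The summed signal of the 6 hepatocyte markers was 0.0622 to 5.70, and Ttr was not well above background on any array. Each slide held 2 rats of every group, but each group sat in a single column of the slides, and an effect of the column cannot be told apart from that of the group. All 43 passing changes of the named members had the same sign on both slides. Their sizes were not always alike. The DSS changes over both genotypes on slides 1 and 2 were -1.89 and -0.60 for Gsta3 and -1.07 and -0.23 for Gsta1. The Gsta3 differences of Pirc minus wildtype were 1.40 and 1.32.

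**Figure D1:**
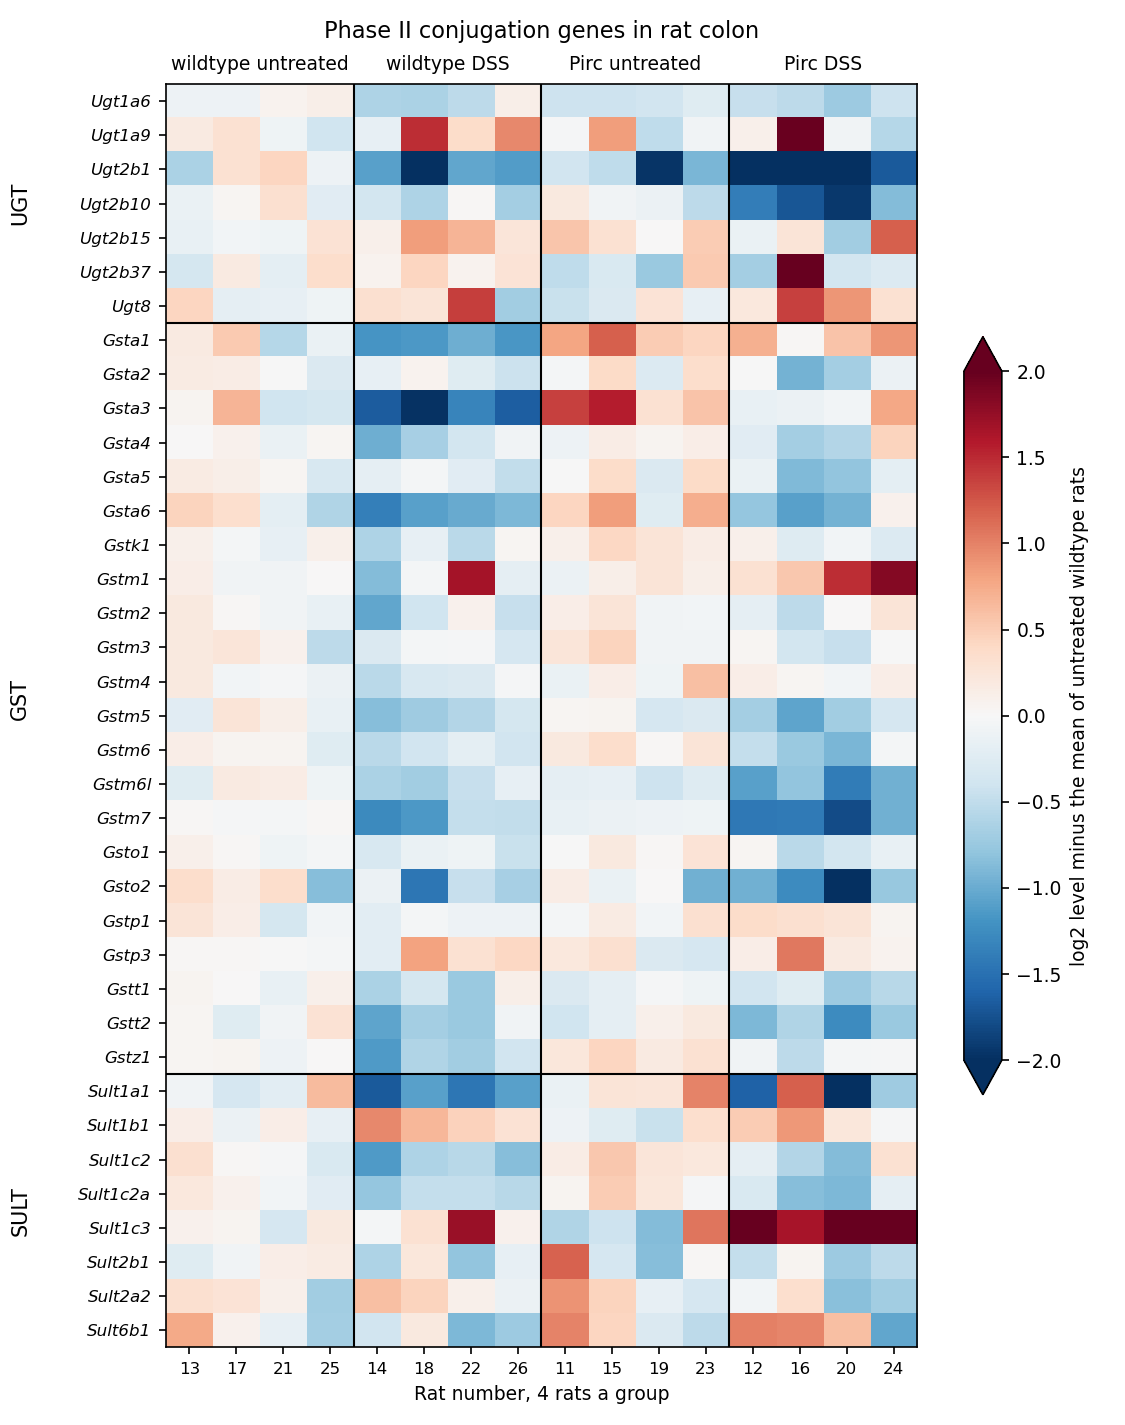
Log2 level of the 37 members that were well above background on at least 1 array, in each of the 16 rats, minus the mean of the 4 untreated wildtype rats; rows are genes grouped by family, columns are rats, and colours saturate at 2. Most GST rows are blue in the 8 DSS rats, the Gsta1 and Gsta3 rows are red in untreated Pirc rats, and Sult1c3 is red in all 4 Pirc rats given DSS.

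DSS was followed mainly by lower levels of these genes. Over both genotypes 17 members fell and 2 rose, that is 40.4% of the 47, where 17.2% of all probes passed in either direction, 6.99% falling and 10.2% rising. The falls comprised 12 GST, 3 SULT and 2 UGT genes, and both rises, Sult1b1 and Sult1c3, were SULT genes. Of the 19, 6 also changed by at least a factor of 2, namely the falls of Gsta3, Gsta6, Gstm7, Sult1a1 and Ugt2b1 and the rise of Sult1c3, beside 5.99% of all probes (0.988% down and 5% up). The median log2 change was -0.42 for the GST family, 0.15 for UGT and 0.01 for SULT, beside 0.06 over all probes. The GST median lay below 0 under each scaling that was tried, while the UGT and SULT medians turned to -0.02 and -0.18 with quantile normalisation. For the 4 UGT and 4 SULT genes well above background on all arrays the medians were 0.09 and -0.68. The labels give the samples as distal colon and do not say how the tissue was removed. The study's methods describe scraped epithelium for untreated rats, and whether these rats were sampled in that way is not given in the sources used here. In such bulk RNA, fewer cells of a type and less RNA per cell cannot be told apart.

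Markers of other cells moved with DSS as well. All 8 fibroblast and matrix markers and 6 of 8 leukocyte markers rose over both genotypes. The summed leukocyte signal was 0.840 to 1.44 in untreated rats of both genotypes, 2.36 to 10.5 in wildtype DSS rats and 7.41 to 15.5 in Pirc DSS rats. Stratified squamous markers rose for 8 of 11 genes, with Ivl not well above background on any array, and their summed signal was 26.8 to 34.99 in the untreated rats, 30.7 to 107.05 in wildtype DSS rats and 52.1 to 154 in Pirc DSS rats. Of the surface epithelial markers 1 of 15 rose and 1 fell, and the group ranges of their sum overlapped. Of 8 smooth muscle markers 1 rose and 1 fell. Their sum was 10.1 in untreated wildtype rat 25, 15.4 in wildtype DSS rat 26 and 2.86 to 6.44 in the other rats. No hepatocyte marker passed, and their sum was 0.232 to 1.64 in untreated and 1.67 to 5.70 in DSS wildtype rats. The part of these cells in the changes of the conjugation genes was not tested. Without the 3 DSS rats of highest squamous signal (20, 22 and 24), all on the same slide, 15 members fell and 3 rose.

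**Figure D2:**
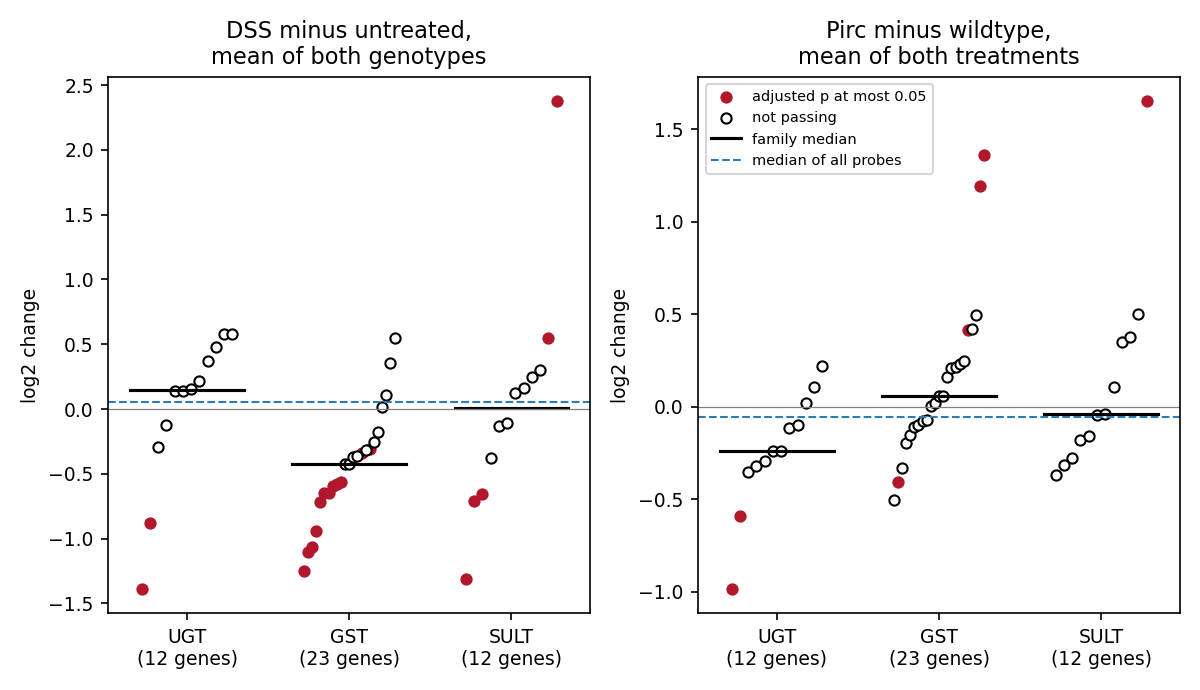
Log2 change of every member by family, for DSS against untreated (left) and Pirc against wildtype (right); filled points passed at an adjusted p of at most 0.05, black bars are family medians and the dashed line is the median of all probes. On the left 19 of the 23 GST points lie below 0 and 12 of them are filled, and on the right the filled points lie on both sides of 0.

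The promoters of GST genes are the textbook setting of the antioxidant response element, the sequence bound by Nrf2, so its core was looked for in the promoters of the members. The core TGACNNNGC was searched on both strands of the 250 bases before the start of 33469 RefSeq promoters (GRCr8). It was present in 10.1% of them and in 5 of the 42 members with an entry (11.9%): Gsta3, Gstm5, Gstm7, Gstp1 and Gstz1. The window around the match is shown for the members that fell and for Gstp1, which did not pass, with the match in capitals.
Gstp1 (chr1:210769728-210769796, minus strand): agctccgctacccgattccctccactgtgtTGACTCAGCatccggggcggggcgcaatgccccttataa
Gstm7 (chr2:198260320-198260363, minus strand): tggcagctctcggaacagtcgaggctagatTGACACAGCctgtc
Gstm5 (chr2:198219626-198219694, plus strand): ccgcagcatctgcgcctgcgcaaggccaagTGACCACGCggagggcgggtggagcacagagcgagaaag
Gsta3 (chr9:31154942-31154988, plus strand): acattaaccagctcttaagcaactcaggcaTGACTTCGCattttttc
Gstz1 (chr6:112525356-112525413, plus strand): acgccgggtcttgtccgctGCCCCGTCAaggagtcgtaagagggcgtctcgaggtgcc
The Gstz1 match reads on the opposite strand of the gene, and Gstm5 held a further match, TGACCCCGC, that ends 45 bases before the start. The share among the members was near that of all promoters, and the matches are letters in a window, not binding sites.

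Among mu-class GSTs, which conjugate a wide range of electrophiles, Gstm7 had the lowest adjusted p of the 47 members for DSS. Its log2 level was -0.55, -0.60, -0.61 and -0.55 in untreated wildtype rats and -0.73, -0.70, -0.68 and -0.66 in untreated Pirc rats. With DSS it was -1.85, -1.72, -1.05 and -1.07 in wildtype rats and -2.01, -1.99, -2.37 and -1.55 in Pirc rats. Every DSS rat was below every untreated rat of its genotype. It fell by 1.07 ± 0.14 (SE) on the log2 scale over both genotypes (limma adjusted p = 0.000112), by 1.29 ± 0.19 in Pirc rats and by 0.85 ± 0.19 in wildtype rats (limma adjusted p = 0.000597 and 0.0258). The wildtype value did not pass where the fit held wildtype rats alone, or without wildtype rat 13, 14, 17, 18, 21 or 25, where the change ranged from -0.97 to -0.70 over all rats left out in turn.

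Of the 8 mu-class genes 4 fell over both genotypes, Gstm5, Gstm6, Gstm6l and Gstm7. Gstm5 fell by 0.59 ± 0.12, and its DSS levels of -0.41 to 0.30 in Pirc and -0.22 to 0.29 in wildtype rats did not overlap the untreated levels of 0.31 to 0.70 and 0.41 to 0.89. Gstm6 fell by 0.56 ± 0.12 and Gstm6l by 0.65 ± 0.11 (limma adjusted p = 0.0044 and 0.00108). The Gstm6 fall did not pass with normexp, another background correction, over both genotypes or in Pirc rats. In both genes DSS and untreated levels were apart in Pirc rats and overlapped in wildtype rats. Over all members, DSS and untreated rats did not overlap in either genotype for 4 falls, Gstm5, Gstm7, Gstz1 and Sult1c2a, and for no rise, where 1.8% and 3.42% of all probes did so.

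Gstm1 went the other way in some rats. Its log2 level in untreated rats of both genotypes lay between -1.30 and -0.94. After DSS it was 0.29 and 0.64 in Pirc rats 20 and 24 and 0.48 in wildtype rat 22, and -2.06 to -0.64 in the other DSS rats. The mean change was 0.55 ± 0.30 and did not pass (limma adjusted p = 0.272). The rats with the 3 highest Gstm1 levels were also those with the 3 highest squamous marker sums, 154, 122 and 107.05. All 3 were on the same slide, where the mean change with DSS was 1.12, against -0.03 on the other slide. The parts of such tissue and of the slide were not tested.

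The alpha class, which reduces lipid hydroperoxides and conjugates products of lipid oxidation, fell in 3 of its 6 genes, Gsta1, Gsta3 and Gsta6. All 6 changes were below 0. Gsta4, whose enzyme acts on hydroxynonenal, showed a change of -0.42 ± 0.16 that did not pass (limma adjusted p = 0.0932). Gsta2 and Gsta5 had values of -0.36 ± 0.15 and -0.43 ± 0.15 and did not pass either. Whether probes of such close paralogs also bind each other's transcripts was not tested.

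Gsta3 was lowest in wildtype rats given DSS. Its log2 levels were -2.19, -1.56, -2.64 and -2.59 in untreated and -3.91, -4.23, -3.57 and -3.89 in DSS wildtype rats. In Pirc rats they were -0.88, -0.68, -1.93 and -1.68 untreated and -2.40, -2.36, -2.31 and -1.48 after DSS. The wildtype ranges did not overlap, and the Pirc ranges overlapped through rat 24. Gsta3 fell by 1.65 ± 0.31 in wildtype rats (limma adjusted p = 0.0102), while the Pirc change of -0.84 ± 0.31 did not pass (limma adjusted p = 0.0907). A second Gsta3 probe gave a wildtype fall of 2.87.

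Gsta1 behaved alike in wildtype rats. There its level was -2.92, -2.58, -3.67 and -3.22 untreated and -4.27, -4.24, -4.08 and -4.26 after DSS, with no overlap. In Pirc rats it was -2.32, -1.90, -2.60 and -2.67 untreated and -2.39, -3.07, -2.54 and -2.22 after DSS, with overlapping ranges. It fell by 1.12 ± 0.24 in wildtype rats (limma adjusted p = 0.0182, not passing without rat 13, 14, 17 or 18 or with normexp) and the Pirc change was -0.18 ± 0.24 (limma adjusted p = 0.711). The difference between these effects, 0.93 ± 0.34, did not pass (limma adjusted p = 0.344). Gsta6 fell by 1.10 ± 0.21 over both genotypes, with like changes of -1.12 and -1.09 in Pirc and wildtype rats.

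The remaining classes hold few genes each. Gstz1, the maleylacetoacetate isomerase of tyrosine breakdown, fell by 0.58 ± 0.11 over both genotypes (limma adjusted p = 0.00237). Its levels were -0.07, -0.06, -0.21 and -0.11 in untreated and -1.25, -0.72, -0.81 and -0.50 in DSS wildtype rats, and 0.11, 0.31, 0.07 and 0.19 against -0.19, -0.64, -0.16 and -0.13 in Pirc rats. Neither genotype showed an overlap. The wildtype change of -0.70 passed, but not without rat 13, 14, 17, 18 or 25, nor where the fit held wildtype rats alone, nor without rats 20, 22 and 24 together. In the theta class Gstt2 fell by 0.72 ± 0.15, the Gstt1 change of -0.37 ± 0.12 just missed the threshold (limma adjusted p = 0.0505), and Gstt4 was not well above background. Gstk1, a GST of mitochondria and peroxisomes, fell by 0.34 ± 0.11.

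Gsto1, an omega-class enzyme that reduces dehydroascorbate, fell by 0.31 ± 0.10, with levels of 2.26 to 2.85 in DSS rats and 2.72 to 3.09 in untreated rats, and it did not pass in 12 of the 16 fits that left out 1 rat. Gsto2 fell by 0.94 ± 0.31 (limma adjusted p = 0.0477), but was well above background on 9 arrays only, did not pass in 11 of those 16 fits, and had a value of 0.02 with normexp, under which Gsto1 did not pass either. The pi class did not pass. Gstp1 lay at 3.46 to 4.12 in untreated rats and 3.59 to 4.17 in DSS rats, a change of 0.02 ± 0.10 (limma adjusted p = 0.936).

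**Figure D3:**
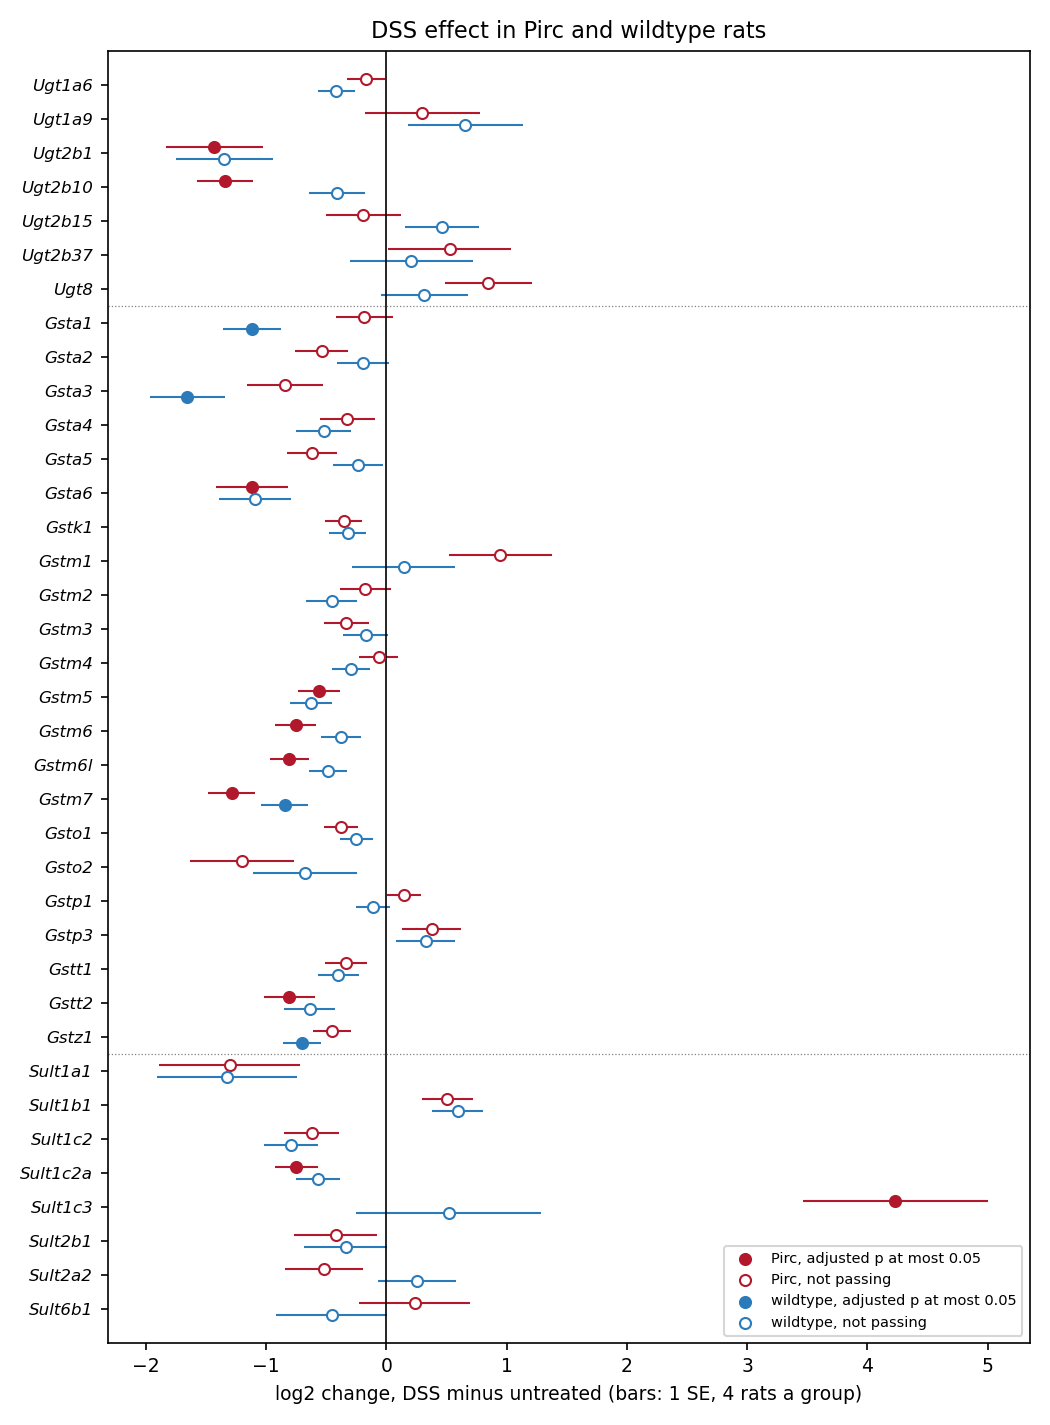
Log2 change with DSS in Pirc rats (red) and wildtype rats (blue) for the 37 members well above background on at least 1 array, with 1 SE; filled points passed at an adjusted p of at most 0.05. Most GST points lie between -1.7 and 0 in both genotypes, and the Sult1c3 point of Pirc rats stands alone at 4.23.

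Sulfotransferases moved in both directions. Sult1c3 was not well above background on any of the 12 arrays of untreated or wildtype rats, and was so on 3 of the 4 arrays of Pirc rats given DSS. There its log2 levels were -5.56, -7.13, -2.37 and -3.98 in rats 12, 16, 20 and 24, rat 16 being the one not well above background. The levels of the other 12 rats lay between -9.65 and -7.05. It rose in Pirc rats (limma adjusted p = 0.00214). The mean of the 4 DSS rats, rat 16 included, was 10.7-fold that of the untreated ones, whose values were raised to a background limit where lower. That limit was the level of the dimmest probe well above background on the array. In rat 16 Sult1c3 lay above that array's limit of -7.31 and was still not well above background. The 10.7-fold is therefore no strict lower bound. In wildtype rats the change was 0.52 ± 0.77 (limma adjusted p = 0.823), with both groups not well above background. The rise over both genotypes did not pass where values below a common floor were set to that floor. Rats 20 and 24 were also highest among the Pirc rats in squamous markers, with sums of 154 and 122 against 52.1 and 82.0 in rats 12 and 16. The urothelial sum was 11.1 and 6.92 in rats 20 and 24 against 1.56 and 3.99, and at most 0.585 in all other rats. Rats 20 and 24 were on 1 slide and rats 12 and 16 on the other, so tissue and slide cannot be told apart here. The part of these tissues was not tested. Without rats 20, 22 and 24 the fitted log2 change in Pirc rats was 2.65 in place of 4.23 (limma adjusted p = 0.00791).

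Sult1b1, a sulfotransferase of phenols and thyroid hormones, was the other gene to rise. Its levels were 4.39, 4.14, 4.39 and 4.09 in untreated and 5.21, 4.92, 4.71 and 4.55 in DSS wildtype rats, without overlap. In Pirc rats they were 4.15, 4.01, 3.80 and 4.59 untreated and 4.76, 5.12, 4.48 and 4.23 after DSS, and the ranges overlapped. The rise over both genotypes was 0.55 ± 0.15 (limma adjusted p = 0.0187) and a second probe rose by 0.59. Neither genotype passed on its own, with changes of 0.51 ± 0.21 and 0.59 ± 0.21 in Pirc and wildtype rats.

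Sult1a1, the phenol sulfotransferase, fell by 1.31 ± 0.41 over both genotypes (limma adjusted p = 0.0399). In wildtype rats its levels were -0.85, -1.12, -0.98 and -0.15 untreated and -2.46, -1.86, -2.21 and -1.85 after DSS. In Pirc rats they were -0.91, -0.51, -0.54 and 0.22 untreated and -2.40, 0.42, -3.49 and -1.49 after DSS. The wildtype groups were apart, while rat 16, a Pirc rat given DSS, exceeded every untreated rat. The fall did not pass in 12 of the 16 fits that left out 1 rat, and it was 1.67 without rat 16 and 1.02 without rat 20. Sult1c2 fell by 0.71 ± 0.16 and Sult1c2a, a close relative, by 0.66 ± 0.13 (limma adjusted p = 0.00655 and 0.00237), the latter with no overlap in either genotype and with a second probe that fell by 0.44. Whether the Sult1c2 and Sult1c2a probes bind each other's transcripts was not tested, so these may not be separate changes. The hydroxysteroid sulfotransferases of the Sult2 class, Sult2a1, Sult2a2, Sult2a6 and Sult2b1, had values of -0.38 to 0.25, and none passed. Sult6b1 had a value of -0.11 that did not pass, and Sult4a1, an orphan member of nervous tissue, was not well above background.

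In the UGT family the falls were in Ugt2b1 and Ugt2b10, which belong to the subfamily that acts on steroids and bile acids among other substrates. Ugt2b10 had levels of 0.80, 0.54, 0.49 and 0.09 in untreated and -0.77, -1.10, -1.32 and -0.25 in DSS Pirc rats. In wildtype rats the levels were 0.47, 0.65, 0.94 and 0.38 untreated and 0.23, -0.02, 0.64 and -0.06 after DSS. The Pirc groups did not overlap, the wildtype groups did. It fell by 1.34 ± 0.23 in Pirc rats (limma adjusted p = 0.00166), against a change of -0.41 ± 0.23 in wildtype rats (limma adjusted p = 0.433), and the difference of -0.93 ± 0.33 did not pass (limma adjusted p = 0.339).

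Ugt2b1 was well above background on 13 arrays. Its levels were -5.33, -4.39, -4.27 and -4.79 in untreated wildtype rats and -5.79, -6.83, -5.73 and -5.82 after DSS, without overlap. In Pirc rats they were -5.08, -5.21, -6.66 and -5.62 untreated and -7.09, -6.80, -8.01 and -6.37 after DSS, where rat 19 among the untreated lay below rat 24. It fell by 1.39 ± 0.28 over both genotypes (limma adjusted p = 0.00349), which did not pass with normexp. Of the other Ugt2b genes only Ugt2b15 and Ugt2b37 reached background on some arrays, and no other passed.

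Ugt1a6, which conjugates small planar phenols, was well above background in every rat. Its levels were 5.21, 5.21, 5.38 and 5.42 in untreated and 4.69, 4.67, 4.78 and 5.43 in DSS wildtype rats, so that rat 26 alone stayed at the untreated level. In Pirc rats they were 4.89, 4.90, 4.92 and 5.07 untreated and 4.85, 4.78, 4.57 and 4.89 after DSS. The change over both genotypes was -0.29 ± 0.11 and did not pass (limma adjusted p = 0.0898), whereas a second Ugt1a6 probe fell by 0.64 ± 0.16 (limma adjusted p = 0.0125). Genes of the Ugt1a cluster share exons, and which of their transcripts each probe binds was not tested. The 5 bases GCGTG, the core bound by the Ah receptor, are shown in capitals in the Ugt1a6 promoter (RefSeq, GRCr8, plus strand), a match also present in 10 of 42 members (23.8%) and 25.9% of all promoters, searched on both strands. In the Gstm5 window above, the last 5 bases of the capitals are the same core on the other strand, and so overlap the antioxidant core.
Ugt1a6 (chr9:96194855-96194919): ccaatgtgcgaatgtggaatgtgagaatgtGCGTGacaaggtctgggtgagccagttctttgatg
Ugt1a9 had a value of 0.48 ± 0.34 and Ugt8, which makes galactosylceramide rather than glucuronides, one of 0.58 ± 0.26, and neither passed (limma adjusted p = 0.415 and 0.147).

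The DSS effect was also read within each genotype, which answers whether it was seen in rats of either kind. In Pirc rats 9 members fell and 1 rose, where 14.7% of all probes passed in either direction, 6.51% falling and 8.14% rising. The falls were Ugt2b1, Ugt2b10, Gstm5, Gstm6, Gstm6l, Gstm7, Gsta6, Gstt2 and Sult1c2a, and the rise was Sult1c3. In wildtype rats 4 members fell, Gsta1, Gsta3, Gstm7 and Gstz1, and none rose, where 3.84% of all probes passed, 0.899% falling and 2.94% rising. With a factor of at least 2 there were 4 falls and 1 rise in Pirc rats, against 1.95% and 5.51% of all probes (7.46% together), and 2 falls in wildtype rats, against 0.402% falling and 2.37% rising (2.77% together). DSS and untreated Pirc rats did not overlap for 9 members that were lower and 2 that were higher, Gstm1 and Sult1c3, beside 8.06% and 8.88% of all probes. In wildtype rats 10 members were lower and 1, Sult1b1, was higher without overlap, beside 4.44% and 8% of all probes. Gstm7 was thus the member that passed in each genotype. Values of 27 members were below 0 in both genotypes and 4 had opposite signs. The wildtype count was 1 without rat 13, 14, 17 or 18, 7 without rat 24 and 9 without rat 26. The Pirc count was 5 where the fit held Pirc rats alone.

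Whether DSS acted differently in the 2 genotypes was tested as the difference of the effects. No member passed, and 13 of all probes did (0.0428%). The other fits, with slide or array row as a block, without moderation and with other scalings, also gave 0 members. At an unadjusted p under 0.05 limma gave 3 members and 3234 probes, and the 3 were Sult1c3, Ugt2b10 and Gsta1. The Sult1c3 difference was 3.71 ± 1.09 on the fitted scale (limma adjusted p = 0.263), with 3 of its 4 groups not well above background. A call in 1 genotype and not in the other is therefore not a difference between them.

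**Figure D4:**
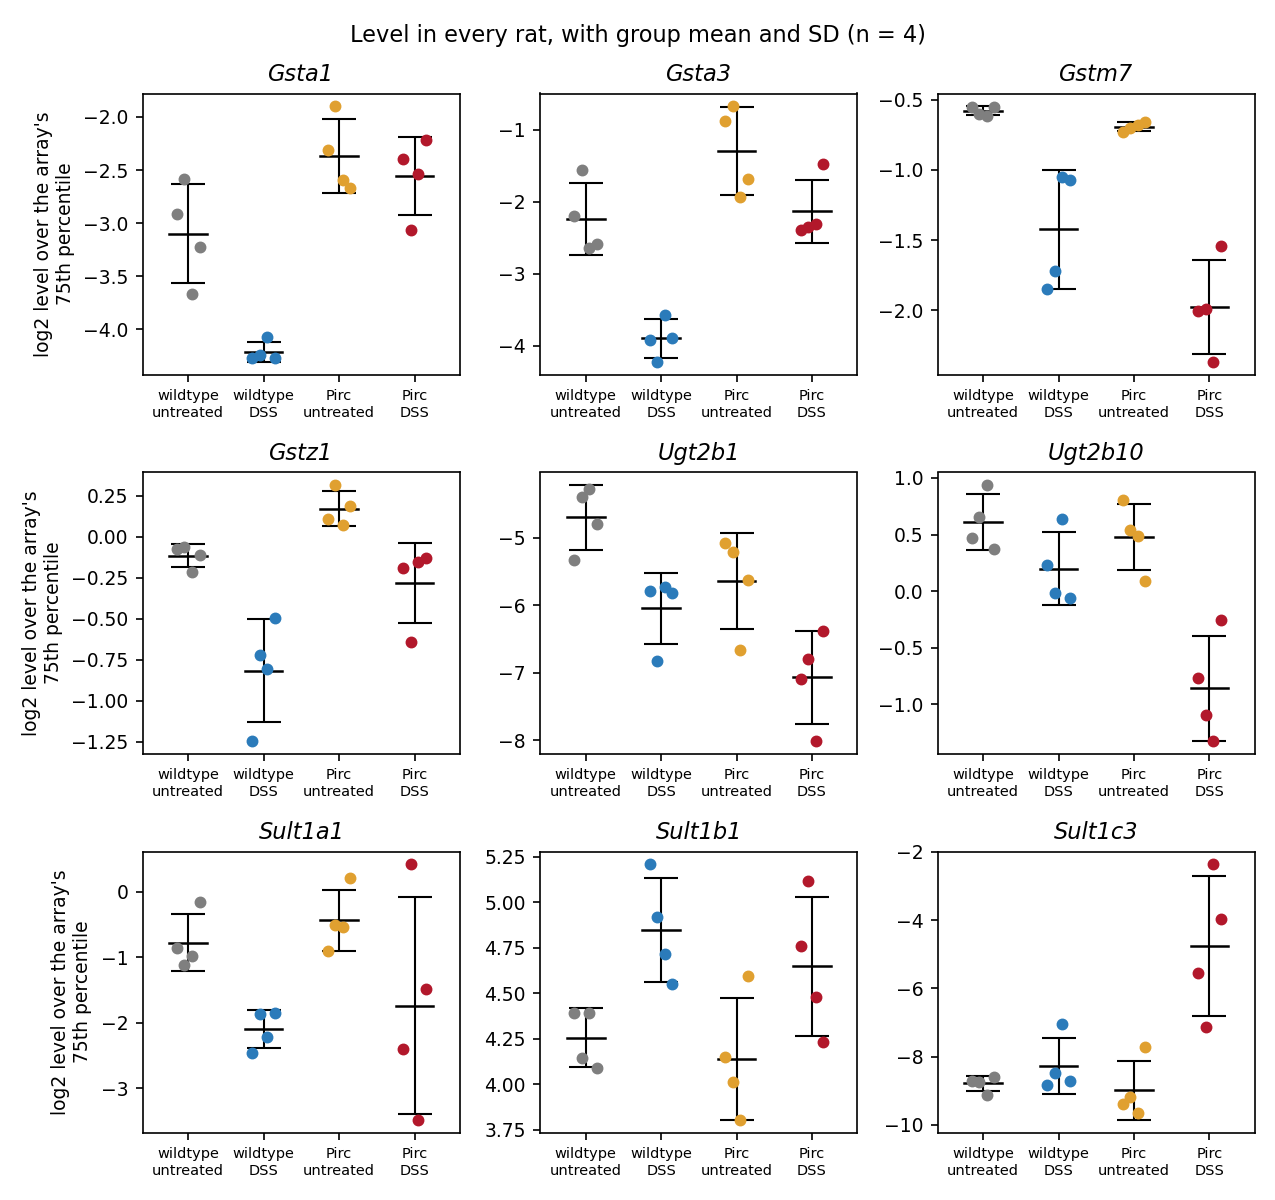
Log2 level over the 75th percentile of the array in each of the 16 rats for 9 members, with group mean and SD (n = 4); each panel has its own axis and levels cannot be compared between panels. The 4 DSS wildtype points lie below the untreated ones in the Gsta1, Gsta3, Gstm7, Gstz1, Ugt2b1 and Sult1a1 panels, and the Sult1c3 points of Pirc rats given DSS lie above all untreated ones.

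Pirc rats were compared with wildtype rats to see what the genotype went with. Since Pirc rats are prone to adenomas, the allele and the bearing of tumours cannot be told apart here. In untreated rats no member passed and no probe of the array did (0%). At an unadjusted p under 0.05 limma gave 4 members, Gsta1 and Gsta3 with differences of 0.73 ± 0.24 and 0.95 ± 0.31, and Ugt2b1 and Ugt1a6 with -0.94 ± 0.40 and -0.36 ± 0.16, against 3103 probes. The other fits, with slide or array row as a block, without moderation and with other scalings, also gave 0 members. Untreated Pirc and wildtype levels did not overlap for Gstk1 and Gstz1, which were higher, and Gstm7 and Ugt1a6, which were lower, where 4.69% and 4.02% of all probes did so. A second Ugt1a6 probe differed by -0.09, with overlapping levels of 2.64 to 2.95 in Pirc and 2.77 to 3.04 in wildtype rats.

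Over both treatments 4 members were higher in Pirc rats, Sult1c3, Gsta3, Gsta1 and Gstz1, and 3 were lower, Ugt2b1, Ugt2b10 and Gstm6l, where 17.5% of all probes passed, 9.26% higher and 8.27% lower. Of these, the differences of Sult1c3, Gsta3 and Gsta1 reached a factor of 2, beside 1.22% of probes higher and 0.78% lower (2% together). No member's genotypes were apart under both treatments, where 1.96% of all probes were higher and 1.73% lower in that way. Gsta3 was higher by 1.36 ± 0.22 and Gsta1 by 1.19 ± 0.17 (limma adjusted p = 0.00199 and 0.00101), and Gstz1 by 0.41 ± 0.11. Ugt2b1 was lower by a log2 difference of -0.99 ± 0.28 and Ugt2b10 by -0.59 ± 0.17 (limma adjusted p = 0.0277 and 0.0241). The Ugt2b1 difference did not pass without rat 14, 17, 20, 21 or 22, or without rats 20, 22 and 24 together. That of Ugt2b10 did not pass without rat 20 or 21. The family medians were 0.06 for GST, -0.24 for UGT and -0.04 for SULT beside -0.06 over all probes, and the GST median turned to -0.01 with normexp and the SULT median to 0.04 with quantile normalisation. For the 4 UGT and 4 SULT genes well above background on all arrays the medians were -0.18 and 0.23. The count was 4 without rat 20 and 3 without rat 21, and Sult1c3, at an adjusted p of 0.0497 in limma, did not pass in 14 of the 16 fits that left out 1 rat.

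After DSS 6 members differed between the genotypes, where 18.2% of all probes passed, 9.47% higher in Pirc rats and 8.76% lower. With a factor of at least 2 there were 3 higher and 1 lower, against 3.1% and 2.37% of all probes (5.47% together). Gsta1 was 3.16-fold and Gsta3 3.40-fold higher in Pirc rats (limma adjusted p = 0.000887 and 0.0028), and the lowest Pirc rat was above the highest wildtype rat in both. Gstz1 was higher by 0.54 ± 0.16, which did not pass without rat 12, 14, 20, 22 or 24. Sult1c3 was 6.85-fold higher by the measure given above for its rise, which is no strict lower bound. Its fitted log2 difference of 3.51 was 2.71 without rat 20, and it did not pass with normexp. Gstz1, Sult1c3 and Gstm6l did not pass where the fit held the DSS rats alone. Ugt2b10 was lower by a log2 difference of -1.06 ± 0.23 and Gstm6l by -0.57 ± 0.16, and neither gene's groups overlapped. Without overlap 3 members were higher, Gsta1, Gsta3 and Gstp1, and 2 were lower, beside 9.62% and 9.13% of all probes. These comparisons share the DSS rats with the DSS effects above. Surface epithelial markers were lower in Pirc rats for 6 of 15 genes after DSS, their sum being 622 to 928 in Pirc and 842 to 1006 in wildtype rats, and the part of these cells was not tested.

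**Figure D5:**
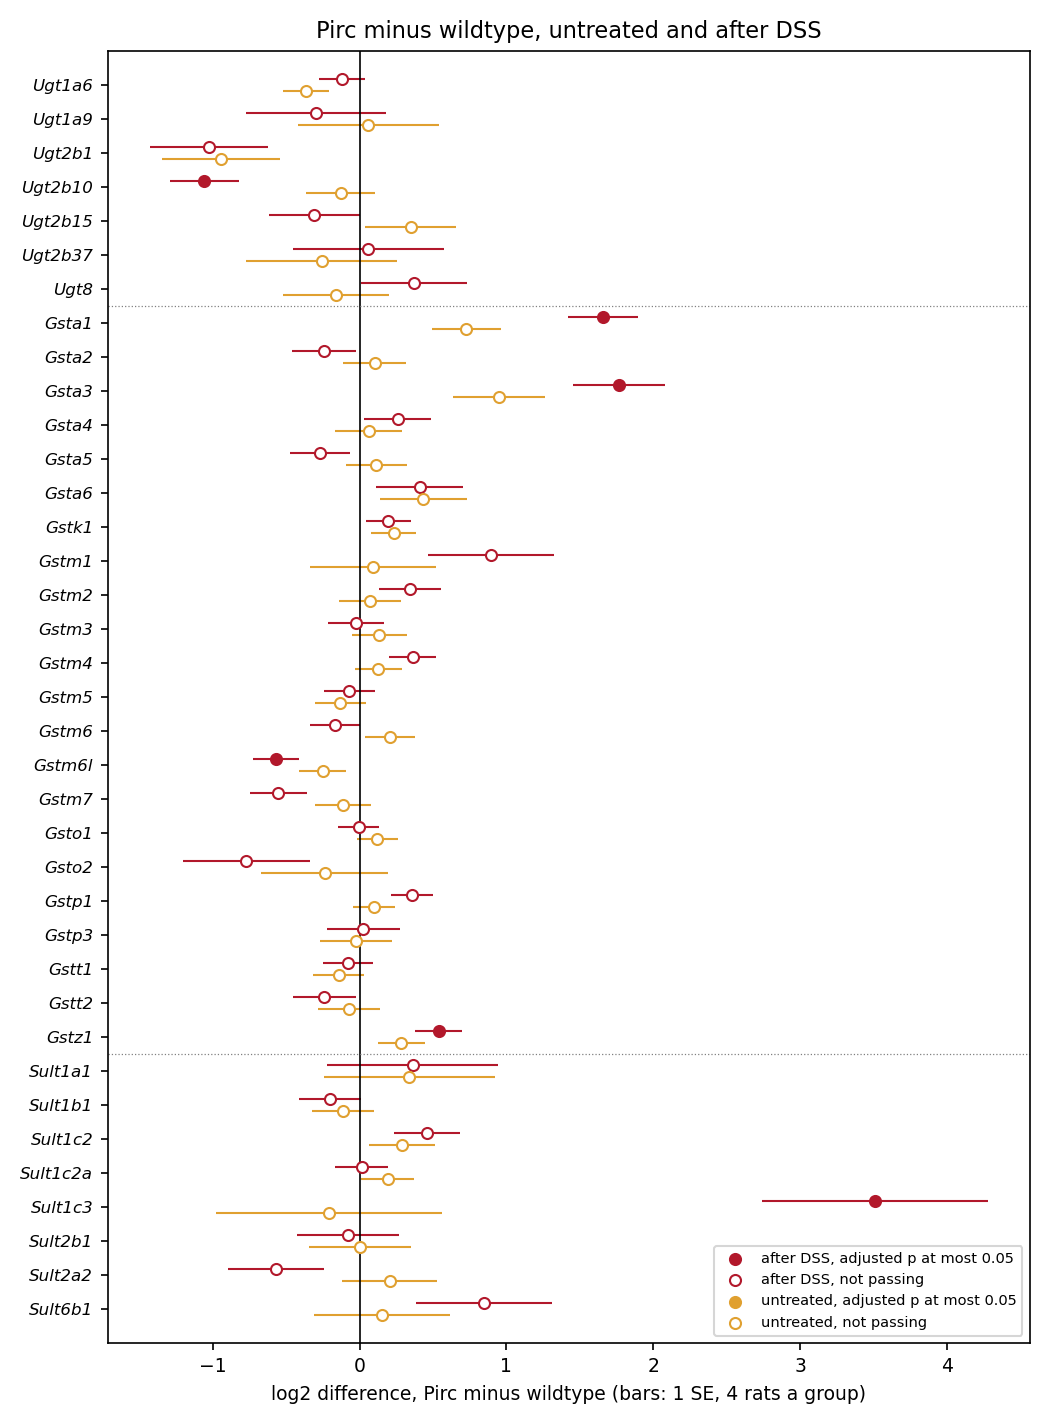
Log2 difference of Pirc minus wildtype rats, untreated (orange) and after DSS (red), for the 37 members well above background on at least 1 array, with 1 SE; filled points passed at an adjusted p of at most 0.05. No orange point is filled, and the filled red points are Gsta1, Gsta3, Gstz1 and Sult1c3 above 0 and Gstm6l and Ugt2b10 below it.

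The genes that supply the co-substrates did not move as 1 group. Of 7 glutathione supply genes 3 rose with DSS over both genotypes and 1 fell. Ggt1, the gamma-glutamyltransferase that splits glutathione outside cells, rose by a fitted 8.97-fold in wildtype rats. No untreated wildtype array was well above background for Ggt1, so the size of this rise is uncertain and is no lower bound. Slc7a11, the cystine carrier, rose by 1.14 ± 0.23, and Chac1, which degrades glutathione, by 0.68 ± 0.17. Gclc, the catalytic subunit of the enzyme that starts glutathione synthesis, fell by 0.35 ± 0.11 and was lower in Pirc rats by a log2 difference of -0.50 ± 0.11. Over both treatments 2 of the 7 were higher in Pirc rats, each at least 2-fold, and 1, Gclc, was lower. Of 6 genes for the sulfate donor PAPS, Papss2, which makes PAPS, fell by 1.22 ± 0.17 and Bpnt1, which clears its product, by 0.57 ± 0.10, and the sulfate carrier Slc26a1 rose (limma adjusted p = 0.000611). No size is given for Slc26a1, since it was well above background on 8 arrays, 7 of DSS rats and 1 of an untreated rat. None of the 3 genes for UDP-glucuronic acid passed with DSS, and Ugdh, which makes that acid, was lower in Pirc rats by a log2 difference of -0.45 ± 0.14. The counts of these lists are read against 17.2% of probes for DSS and 17.5% for genotype.

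Microsomal and related glutathione transferases gave 2 rises and 2 falls of 7 with DSS. Hpgds, the haematopoietic prostaglandin D synthase, rose by 1.32 ± 0.18 and Ptges, the prostaglandin E synthase, by 0.88 ± 0.18. Mgst1 fell by 0.57 ± 0.16 and was higher in Pirc rats by 0.99 ± 0.16, and Alox5ap, which presents arachidonate for leukotriene synthesis, fell by 0.41 ± 0.12. Of 10 other conjugation enzymes Acsm3 alone passed and rose by 0.87 ± 0.18. None of 6 deconjugation genes passed with DSS, and of these Gusb, the beta-glucuronidase, was higher in Pirc rats by 0.32 ± 0.10, while Sts and Arsa, a pair of sulfatases, were lower. Among 6 efflux pumps for conjugates Abcc4 rose by 0.76 ± 0.13, and Abcg2 was lower in Pirc rats by a log2 difference of -1.06 ± 0.25.

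Among other known targets of Nrf2 and the Ah receptor, more genes rose than fell with DSS over both genotypes, but none passed in wildtype rats alone. Of 12 Nrf2 targets 6 rose with DSS over both genotypes and 1, Gclc, fell, the largest rise being that of Akr1b8, an aldo-keto reductase, at 1.49 ± 0.18. The summed level of the list was 42.5 in Pirc DSS rat 20, 26.2 to 27.3 in the other Pirc DSS rats and 16.9 to 22.6 in the other groups. Of 5 Ah receptor targets 4 rose. Their summed level was 2.07 and 1.98 in Pirc DSS rats 20 and 24, and 1.04 and 1.09 in Pirc DSS rats 12 and 16. Rats 20 and 24 also had the highest squamous sums among the Pirc rats and shared a slide, and the parts of tissue and slide were not tested. Cyp1a1 was well above background on 6 arrays, and rose in Pirc rats, where no untreated array was well above background (limma adjusted p = 0.0143). By the measure used for Sult1c3 the rise was 6.49-fold, which is no strict lower bound. In Pirc rats 5 Nrf2 targets rose and 1 fell and 4 Ah receptor targets rose, where 14.7% of all probes passed. In wildtype rats, where 3.84% of all probes passed, none of either list did. The difference between the genotypes' DSS effects passed for no gene of either list. Over both treatments, where 17.5% of all probes passed, 5 Nrf2 targets were higher in Pirc rats and 2 lower. Of the Ah receptor targets 3 were higher. Of 14 xenobiotic sensors and regulators Nr1i3 and Nr1h4, nuclear receptors for foreign compounds and bile acids, fell by 0.86 ± 0.19 and 0.85 ± 0.21 and Rxra rose by 0.45 ± 0.13. Over both treatments 5 of them were lower in Pirc rats, among them Vdr, the vitamin D receptor, with a log2 difference of -1.12 ± 0.20, and Rxra with -0.74 ± 0.13.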

How the data were processed

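Agilent Feature Extraction (10.7.3.1, per the file headers) files of 16 arrays were used. Their intensity values, deposited as processed signals, were already background-subtracted by the authors' extraction, and any later step by the authors is not given in the sources used here. Of 62976 spots 4259 were controls. Spots of a probe were averaged on the log2 scale without outlier-flagged spots, and each array was set to its 75th percentile. Groups were fitted with limma 3.58.1 (R 4.3.3) as 4 means and 7 contrasts, with Benjamini-Hochberg adjustment over 30367 probes. The script was tested on simulated data. Accessions were named through the RefSeq table (GRCr8), which matched 18006 probes and left 12361 unnamed. The text names, in each comparison other than the difference of effects, up to 8 rises and 8 falls among members that passed, the 3 brightest members of each family, and members whose probes disagreed. From the other lists it names up to 3 rises and 3 falls. Further members, among them Gstm1, Gstm5 and Gstk1, were named after their values were seen. Members and lists were chosen with earlier results of these data known. The 75th percentile was 875 to 2194 signal units and 71.1 to 80.3% of spots were well above background. No spot was saturated, and the number of rats limits the precision. Replicates were separate rats. The normexp alternative used median spot signals.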

Additional observations from a re-analysis of the deposited data

Results flagged for a closer look

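In groups of 4 rats, a value was singled out where its gap to the nearest other rat took up more of the group's range than Dixon's test allows. Chance gives this in about 1 of 20 groups, or 4.2 of the 84 groups of the named members, and 6 were found. Rat 22 was highest in Gsta1 among wildtype DSS rats at -4.08, the others being -4.27 to -4.24. Rat 24 was highest in Gsta3 among Pirc DSS rats at -1.48, against -2.40 to -2.31. Rat 16 of the same group was lowest in Gstz1 at -0.64, against -0.19 to -0.13. Rat 23 was highest in Ugt1a6 among untreated Pirc rats at 5.07, against 4.89 to 4.92, and rat 26 among wildtype DSS rats at 5.43, against 4.67 to 4.78. Rat 18 was lowest in Ugt2b1 among wildtype DSS rats at -6.83, against -5.82 to -5.73.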

How the results depend on the processing

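The count of members that passed with DSS over both genotypes, 19, became 6 with a minimum change of a factor of 2, and ranged from 15 to 21 when 1 rat was left out. For DSS in Pirc rats, 10 became 5 with a factor of 2, 5 with only the compared groups in the fit and 23 at an adjusted p of 0.20, and ranged from 7 to 14 over the rats left out. For DSS in wildtype rats, 4 became 2 with a factor of 2, 13 at 0.20 and 7 with quantile normalisation, with a filter on dim probes or with a common floor, and ranged from 1 to 9. For genotype over both treatments, 7 became 3 with a factor of 2, 13 at 0.20 and 3 without rats 20, 22 and 24 together, an alternative chosen after seeing the data, and ranged from 3 to 7. For genotype after DSS, 6 became 3 with only the compared groups and 12 at 0.20, and ranged from 4 to 7. The SULT median with DSS moved to -0.68 in each DSS comparison with the dim filter, which keeps fewer SULT genes, and to -0.29 in Pirc rats with a common floor. Under normexp the median over the whole array was 0.15 for DSS and -0.18 for genotype, and 34 of the 43 named changes that passed kept their call under it. Quantile normalisation, the slide as a block, flagged spots kept and probes averaged by gene kept 43 of 43, scaling to detected probes and the common floor 41 each, the row block 42, no moderation 40, and the compared groups alone 10 of 19. The 2 calls lost with the common floor were those of Sult1c3 for DSS over both genotypes and for genotype over both treatments. Of the 43, 28 passed in all 16 fits that left out 1 rat. Signs turned for Gsto2 with DSS under normexp (0.0215) and for values that did not pass: Gstp1 with DSS under quantile normalisation (-0.0379) and over the rats left out (-0.0398 to 0.0623, below 0 without rat 11, 12, 19 or 21), and Ugt1a9 between genotypes over the rats left out (-0.387 to 0.0358, above 0 without rat 18 or 24) and without rats 20, 22 and 24 (0.17). The causes were not tested. Array signal over background limits what can be said of the 18 members that were not well above background on all arrays. No paired analysis was possible because the rat numbers of the 4 groups are all different.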
